A study of Mus musculus with 80 samples.

Results

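Cerebellum and neocortex were compared gene by gene in the same mice, with every cerebellum library of the count table set against every neocortex library and the libraries paired by animal number. The samples compared are 31 of the 77 libraries of the table, 15 from cerebellum and 16 from neocortex, and 30 of them come from 15 animals that gave both regions. The remaining library is the neocortex of virgin animal 4490, whose cerebellum library the authors removed as an outlier. The features compared are the 13016 genes, of 27179 counted, that reach 5 CPM (reads of a gene per 1000000 counted reads of the library) in at least 8 of the 77 libraries.

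All animals were females without an engineered allele or drug, C57BL/6 in the labels and C57BL/6J in the methods of the study, and they were grouped by reproductive state. Only P females had been housed with a male, so parity and that contact cannot be told apart. Virgin (V) females, kept in groups, gave 7 cerebellum and 8 neocortex libraries. Primiparous (P) females, which had raised a first litter, gave 8 libraries of each region. According to the labels, P females were mated at 8 weeks of age with a male present for 2 weeks, and tissue was taken 3 weeks after weaning, with V females matched in age. The methods of the study describe a longer time after weaning. Only the left side of each of these regions was taken. The RNA was polyadenylated and the libraries came from whole tissue, so fewer cells of a type and less RNA per cell cannot be told apart. The libraries of a region were pooled with each other for sequencing, so region and sequencing pool cannot be told apart either. The study was built to compare V with P females within each region. The contrast of regions described here uses the fact that each animal gave both tissues.

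The cerebellar cortex holds the densest population of neurons of the brain, the glutamatergic granule cells. Their axons, the parallel fibres, drive Purkinje cells, large GABAergic neurons whose axons are the sole output of the cerebellar cortex. Stellate, basket and Golgi interneurons and the radial Bergmann glia complete the circuit. The neocortex is built of glutamatergic pyramidal neurons in layers and of several kinds of GABAergic interneurons, which reach it in development from the ventral forebrain. The cerebellum arises from the hindbrain and the neocortex from the telencephalon, and transcription factors that pattern these territories often stay expressed in adult neurons.

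Depth was alike in both regions. Between 8702483 and 29090360 reads were counted on genes per cerebellum library (median 19541982) and between 8678050 and 31391961 per neocortex library (median 20498349). Markers of neighbouring tissues were high in several libraries, and such RNA is named below after the marker list, though its source was not tested. The summed level of 10 olfactory bulb genes was 310 to 646 CPM in 13 neocortex libraries and 109 to 141 CPM in those of animals 405, 413 and 425, against 92.5 to 141 CPM in cerebellum. The summed level of 9 choroid plexus genes was 924 to 5272 CPM in the cerebellum libraries of animals 409, 421, 4489 and 4491, against 176 to 402 CPM in the other 11 and 219 to 377 CPM in neocortex. Prl and Gh, hormones of the pituitary, were listed at 90.1 and 28.8 CPM in the cerebellum and 75.5 and 38.8 CPM in the neocortex library of P animal 427. Lower levels of Prl, from 15.6 to 26.7 CPM, were listed in the cerebellum of P animal 413, both regions of P animal 414 and the neocortex of V animal 4490. The calls of named genes that were lost without the libraries with olfactory bulb or choroid plexus RNA are given below.

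**Figure D1:**
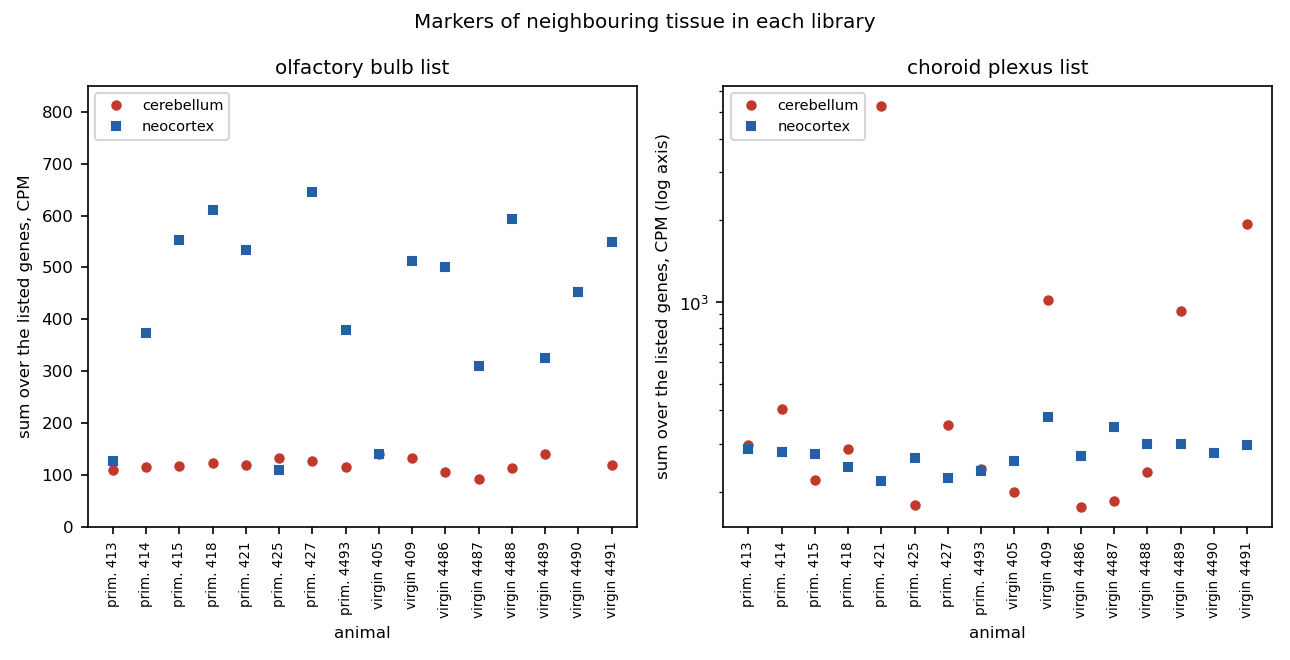
Summed level of olfactory bulb genes (CPM) and of choroid plexus genes (CPM, log axis) in each of the 31 libraries, by animal along the horizontal axis, with red circles for cerebellum and blue squares for neocortex. In 13 of 16 neocortex libraries the olfactory bulb genes sum to 310 CPM or more, and in 4 of 15 cerebellum libraries the choroid plexus genes sum to 924 CPM or more.

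Most genes differed between the regions. With the animal as a block, 5016 of 13016 genes were higher in cerebellum (38.5%) and 5137 higher in neocortex (39.5%), together 78.0%, at an adjusted p under 0.05 (edgeR quasi-likelihood test with Benjamini-Hochberg adjustment). Since so many small differences pass, a gene is called below only where edgeR's glmTreat test finds a difference of over 2-fold at an adjusted p under 0.05. By that rule 877 genes were higher in cerebellum (6.74%) and 1365 higher in neocortex (10.5%), together 17.2% of those tested, and these shares are the background for every list that follows. Every cerebellum library lay above every neocortex library for 2412 genes (18.5%), and the reverse held for 1860 genes (14.3%). Without adjustment for composition (library size only) the split of the genes passing at an adjusted p under 0.05 moved from 49.4% to 60.3% higher in cerebellum, with the median log2 fold change of all genes moving from −0.00449 to 0.124. The log2 fold changes given here include that adjustment, so they lie about this much below the ratio of the CPM values.

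The size of the difference was small for most genes and large for a minority. The median absolute log2 fold change was 0.40, the 95th percentile 2.90 and the 99th percentile 6.01. Among the called genes, 102 were higher in cerebellum and 239 higher in neocortex by over 16-fold, and 20 and 25 by over 256-fold. At each limit from 4-fold to 256-fold the neocortex had more. Genes called for cerebellum took 10.4% to 11.4% of the counted reads of a cerebellum library and 2.07% to 2.61% of a neocortex library. Genes called for neocortex took 13.7% to 15.4% of a neocortex library and 3.83% to 4.08% of a cerebellum library. The groups of libraries do not overlap in either share, as the choice of these genes fixes. The plot of mean levels shows both sets of genes.

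**Figure D2:**
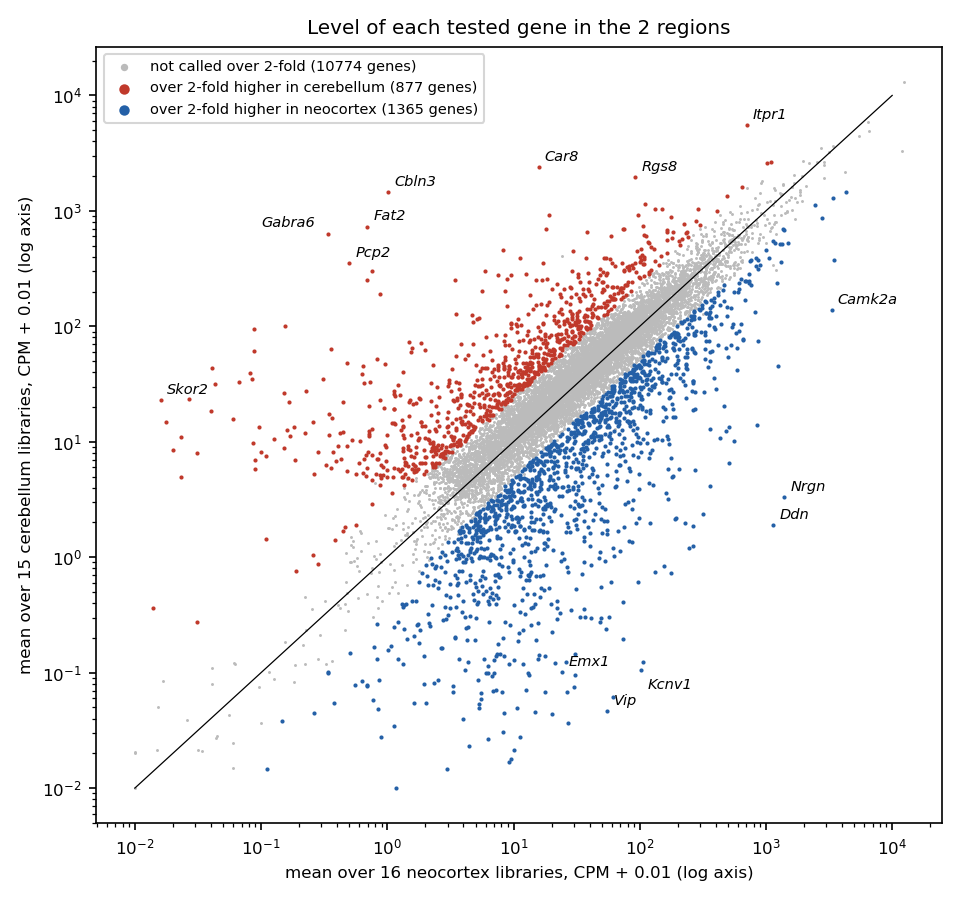
Mean level of each of the 13016 tested genes over the 15 cerebellum libraries (vertical axis) against the mean over the 16 neocortex libraries (horizontal axis), in CPM + 0.01 on log axes. The 877 genes called for cerebellum lie above the diagonal and the 1365 called for neocortex below it.

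The number of genes at 5 CPM or more differed by less than the spread, 11622 ± 52 in cerebellum and 11628 ± 106 in neocortex (SD, n = 15 animals), with a mean difference of −5.47 and an exact two-sided sign-flip p of 0.845. At a limit of 1 CPM instead, cerebellum had fewer, by 264 on average (exact p = 0.000122). The 100 most abundant genes took 17% ± 0.91 of the reads in cerebellum and 19.3% ± 1.77 in neocortex, lower in cerebellum in 15 of 15 animals (exact p = 6.1e-05, the smallest that 15 animals can give). Long non-coding RNAs were called more often than protein-coding genes, 23 and 48 of 232 (30.6%) against 840 and 1286 of 12599 (16.9%). With genes ordered by span and divided into 5 equal sets, the set with the longest genes (median 150023 bases) had 11.2% called for cerebellum and 14.8% for neocortex, and the set with the shortest (median 5118 bases) 4.71% and 10.9%. No test was made of these shares.

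V and P animals gave nearly the same list when each state was fitted alone. The fits share no animal. In V females 2143 genes were called and in P females 2036, with 1866 in both, which is 87.1% of the V and 91.7% of the P list, and 0 of the shared genes had opposite signs. Across the 13016 genes, which are not independent replicates, the log2 fold changes of the fits correlated with Pearson's r of 0.982.

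Granule cell genes separated the regions without exception. All 20 genes of the granule cell list were called for cerebellum, with a median log2 fold change of 4.61, and for all 20 the libraries of the regions did not overlap. The lists were written from general knowledge of the cell types. Below, paired CPM values are means over the 15 cerebellum and the 16 neocortex libraries, in that order, and log2FC stands for the log2 fold change of cerebellum over neocortex, whose SE has a median of 0.0951 among called genes. Gabra6, the GABA-A receptor subunit particular to granule cells in the brain (mm10 chr11:42306437-42321072), lay at 536 to 717 CPM (median 636) in the 15 cerebellum libraries and at 0 to 0.822 CPM (median 0.402) in the 16 neocortex libraries. No neocortex library reached 1 CPM. Its log2 fold change was 10.86 (SE 0.191, edgeR adjusted p = 1.67e-20), the largest fitted value of all genes with a mean of at least 20 CPM, an order that depends on the prior count for genes with so few reads in neocortex. Cbln3, a secreted C1q-like protein of granule cells (mm10 chr14:55878913-55884392), had the most reads of the list, at 1204 to 1629 CPM (median 1470) in cerebellum and 0.542 to 1.86 CPM (median 0.96) in neocortex, a log2 fold change of 10.40. Its partner Cbln1, which links parallel fibres to Purkinje cell dendrites, lay at 928 ± 69.5 CPM in cerebellum (SD over 15 libraries) and was still measured at 19 ± 4.54 CPM in neocortex. Fat2, an atypical cadherin of parallel fibres, ranged most among libraries, from 495 to 992 CPM (median 710) in cerebellum against 0.115 to 1.23 CPM (median 0.607) in neocortex (log2 fold change 9.88).

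Transcription factors of the granule lineage followed. Neurod1, which drives granule cell differentiation, lay at 338 to 470 CPM (median 382) in cerebellum and 8.63 to 13.5 CPM (median 12) in neocortex (log2 fold change 4.99, SE 0.0822). The level in neocortex was low but present in all 16 libraries. Pax6, a homeobox factor of granule cell precursors that adult granule cells keep, had a log2 fold change of 2.57, and Etv1 one of 2.18. Uncx and Barhl1, homeobox factors, were near 0 in neocortex, with means of 0.0567 and 0.0502 CPM against 32.6 and 15.7 CPM in cerebellum. The smallest difference of the list was that of Gabrd, the receptor subunit of extrasynaptic inhibition, at a log2FC of 1.42 (228 against 77.8 CPM). Among genes that no list held were Crtam, a membrane protein known from T cells (95 against 0.0772 CPM, log2 fold change 10.02), and Cnpy1, a regulator of FGF signalling (43.9 against 0.0307 CPM, log2 fold change 9.95). Iltifb, a near copy of Il22, was also among the largest at a log2FC of 9.32, but reads that near-identical genes share were not counted, so its level is uncertain.

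Purkinje cell genes were nearly all called. All 24 genes of the list were higher in cerebellum at an adjusted p under 0.05 and 23 were called (median log2 fold change 4.35), and none overlapped between the regions. Itpr1, the IP3 receptor that releases calcium from the endoplasmic reticulum (mm10 chr6:108213096-108551109), lay at 4636 to 6137 CPM (median 5650) in cerebellum and 329 to 951 CPM (median 722) in neocortex. It had the largest difference in mean CPM of all called genes higher in cerebellum, with a log2 fold change of 2.89 (SE 0.106, edgeR adjusted p = 5.06e-14). Car8, which binds that receptor, differed much more in relative terms, at 2098 to 2833 CPM (median 2426) against 11.2 to 19.4 CPM (median 16.3) and a log2 fold change of 7.11. Rgs8, a regulator of G-protein signalling, lay at 1777 to 2177 CPM (median 1969) and 63.8 to 108 CPM (median 94.1) (log2FC 4.29). Per kilobase of exon, mean levels in cerebellum were 621 CPM for Car8, 303 CPM for Itpr1, 299 CPM for Cbln3 and 256 CPM for Gabra6, so the order by length differs from the order by reads.

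Other Purkinje cell genes were close to absent from neocortex. Pcp2, a modulator of Gi and Go proteins (mm10 chr8:3623371-3625545), lay at 273 to 441 CPM (median 368) in cerebellum and 0.0815 to 1.22 CPM (median 0.442) in neocortex (log2 fold change 9.20). Ppp1r17, a phosphatase inhibitor, lay at 299 against 0.748 CPM. Skor2, a transcriptional corepressor of Purkinje cells, had 6556 counts over the cerebellum libraries and 2 over the neocortex libraries, a ratio of CPM of 3595 with a counting interval (95%) of 995 to 29694. Lhx1 and Lhx5, LIM homeobox factors of Purkinje cell differentiation, had log2 fold changes of 9.38 and 6.72. Calb1, a calcium buffer shared with some neocortical neurons, differed less (1146 against 110 CPM, log2FC 3.28). Intervals and ratios of counts cover counting error only.

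Promoters of leading genes of both regions are shown here, since the CpG content before the start was lower in both sets of called genes than in all genes tested, which is given as a description with no test. Each sequence is the 250 bases before a start that RefSeq lists for the gene (GRCm38.p6, which is mm10), written 5′ to 3′ on the strand of the gene. The gene spans given here are from GENCODE, and the start used for Nrgn lies inside its span, so that window overlaps the gene. Capitals mark CpG dinucleotides and matches on either strand to 3 motifs. The first is the TATA box, searched for as TATAAA. The next is the core of nuclear receptor sites, searched for as AGGTCA. The last is the core of the cAMP response element, searched for as TGACGT, which overlaps 1 CpG by its own letters.
Gabra6, chr11:42321073-42321322, minus strand: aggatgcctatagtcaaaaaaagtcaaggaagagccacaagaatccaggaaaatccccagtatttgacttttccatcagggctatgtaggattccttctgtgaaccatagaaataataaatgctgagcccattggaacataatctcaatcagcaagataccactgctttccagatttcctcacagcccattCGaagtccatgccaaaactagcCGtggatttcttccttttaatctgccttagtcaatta
Neurod1, chr2:79456637-79456886, minus strand: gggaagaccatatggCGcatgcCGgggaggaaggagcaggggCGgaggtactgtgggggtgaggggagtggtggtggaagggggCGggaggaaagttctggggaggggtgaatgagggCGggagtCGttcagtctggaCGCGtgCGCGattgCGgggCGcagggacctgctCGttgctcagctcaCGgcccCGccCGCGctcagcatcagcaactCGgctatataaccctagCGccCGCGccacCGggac
Pcp2, chr8:3625548-3625797, minus strand: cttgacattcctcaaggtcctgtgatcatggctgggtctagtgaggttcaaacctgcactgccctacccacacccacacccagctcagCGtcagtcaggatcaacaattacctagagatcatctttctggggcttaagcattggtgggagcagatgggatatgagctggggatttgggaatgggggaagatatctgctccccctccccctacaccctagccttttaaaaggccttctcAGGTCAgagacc
Vip, chr10:5638968-5639217, plus strand: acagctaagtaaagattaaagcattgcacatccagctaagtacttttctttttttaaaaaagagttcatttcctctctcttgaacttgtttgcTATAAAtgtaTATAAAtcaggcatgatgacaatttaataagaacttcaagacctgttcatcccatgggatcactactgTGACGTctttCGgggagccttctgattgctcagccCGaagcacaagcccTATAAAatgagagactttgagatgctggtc
Nrgn, chr9:37552746-37552995, minus strand: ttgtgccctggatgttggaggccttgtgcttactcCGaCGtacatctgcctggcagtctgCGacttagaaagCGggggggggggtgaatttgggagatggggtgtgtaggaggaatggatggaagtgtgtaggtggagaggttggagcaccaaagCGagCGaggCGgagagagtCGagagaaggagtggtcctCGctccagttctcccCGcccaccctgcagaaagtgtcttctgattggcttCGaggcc
The Gabra6 window holds 2 CpG and no motif match and that of Pcp2 1 CpG and 1 AGGTCA, whereas that of Neurod1 holds 22 CpG. The Vip window holds 3 CpG, 3 matches to TATAAA and 1 to TGACGT, and that of Nrgn 11 CpG and no match. Of the 13016 genes tested, 10260 had such a sequence, with a median of 16 CpG, and 12.7% of them held 5 or fewer. Among genes called for cerebellum, 658 of 877 had a sequence, with a median of 13 CpG and 22.8% at 5 or fewer. For neocortex these values were 1036 of 1365, 13 and 24.8%. TATAAA was in 6.01% of all windows, 6.99% of the cerebellum set and 8.01% of the neocortex set, and AGGTCA in 10.1%, 12.2% and 10.3%. TGACGT was in 10.2%, 5.17% and 5.89%. A match is a description of the sequence and not of binding.

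Markers of other cerebellar cells were split. Of 12 genes of cerebellar interneurons, 6 were called for cerebellum and 2 for neocortex. Slc6a5, the transporter that marks glycinergic Golgi and Lugaro cells, had 4227 counts in cerebellum and 2 in neocortex, with a level of 13.2 to 16.8 CPM (median 14.4) in cerebellum and a ratio of CPM of 2318 (counting interval 641 to 19148). Tfap2a and Tfap2b, factors of GABAergic interneuron development, had log2 fold changes of 6.22 and 5.25, Pax2 one of 5.79, and Kit, a receptor kinase of stellate and basket cells, one of 2.81 (291 against 38.8 CPM). Grm2, a receptor of Golgi cells, and Sorcs3, which both tissues express, went the other way (log2FC −1.46 and −1.34). Of 7 genes of unipolar brush cells, 4 were called for cerebellum, led by Otx2 at a log2FC of 3.99 and Lmx1a at a log2FC of 3.70, and 1, Plcb1, for neocortex. Eomes, the factor most used to mark them, lay at 0.293 to 32.1 CPM (median 25.2) in neocortex and 15.4 to 42.7 CPM (median 23.9) in cerebellum and did not pass the test (edgeR adjusted p = 0.219). By limma-trend on the deposited log2 values it passed narrowly (log2FC 1.00, adjusted p = 0.0483). With the 3 animals with little olfactory bulb RNA in the neocortex library, its log2FC was 4.88 (edgeR adjusted p = 3.22e-07), but Eomes is 1 of the 10 genes by which these animals were chosen. Eomes is also a gene of olfactory bulb output neurons, and Otx2 of choroid plexus. The part of choroid plexus in the value of Otx2 was not tested.

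Bergmann glia genes were mostly higher in cerebellum, 8 of 12 called, with 1 called for neocortex. Gdf10, a ligand of the TGF-beta family that marks Bergmann glia, lay at 242 to 313 CPM (median 282) in cerebellum and 5.79 to 9.03 CPM (median 7.56) in neocortex (log2 fold change 5.07). A2m, a protease inhibitor, was at a log2FC of 5.15 and Ptch1, the hedgehog receptor, at a log2FC of 2.64. Gria4, the AMPA receptor subunit of these glia, was at a log2FC of 2.31, while Gria1 passed at an adjusted p under 0.05 without the call (804 against 396 CPM, log2FC 0.90). Fabp7, a lipid-binding protein of radial glia, was lower in cerebellum in the same way (31 against 62.1 CPM, log2FC −1.02), but its log2FC was 0.55 in the 3 animals with little olfactory bulb RNA.

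The neocortex was marked by genes of pyramidal neurons. Of the 20 genes in that list, 15 were called for neocortex and 0 for cerebellum, with a median log2 fold change of −3.62. Nrgn, a calmodulin-binding protein of dendrites (mm10 chr9:37544492-37552904), lay at 1095 to 2276 CPM (median 1308) in neocortex and 1.48 to 5.15 CPM (median 2.53) in cerebellum (log2 fold change −8.90). The highest neocortex value is that of P animal 427. Camk2a, the kinase of long-term potentiation, had the largest difference in mean CPM of the list, at 2305 to 4122 CPM (median 3285) in neocortex and 118 to 160 CPM (median 138) in cerebellum (log2 fold change −4.70). Emx1 and Tbr1, factors of the pyramidal lineage, had log2 fold changes of −8.38 and −7.59, and Icam5, an adhesion molecule of telencephalic dendrites, one of −7.85.

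Some pyramidal genes were shared. Slc17a7, the vesicular glutamate transporter of both pyramidal and granule cells, was at 513 against 1297 CPM (log2 fold change −1.47). Neurod2, a bHLH factor of both, went against the list at 168 against 87.5 CPM and a log2FC of 0.81, higher in cerebellum at an adjusted p under 0.05 without the call. Ddn, a dendritic mRNA that no list held, lay at 949 to 1401 CPM (median 1126) in neocortex and 0.594 to 7.32 CPM (median 1.38) in cerebellum (log2 fold change −9.53). With the 3 animals with the least olfactory bulb RNA alone, its log2FC was −8.42 and its call was lost (edgeR adjusted p = 0.121), and 1 of these 3, V animal 405, has the highest cerebellum value. Among genes with the largest differences in reads were also Camk2n1, an inhibitor of Camk2a (372 against 3464 CPM, log2FC −3.33), Kif5a, a motor of axonal transport (1471 against 4337 CPM, log2FC −1.68), the long non-coding RNA Meg3 (1301 against 3424 CPM, log2FC −1.58) and Slc1a2, the glial glutamate transporter (869 against 2793 CPM, log2FC −1.77).

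Genes of each layer were among those called. Of 10 genes of upper layers 7 were called for neocortex, led by Lamp5 (1.87 against 262 CPM, log2FC −7.43) and Rasgrf2 (log2FC −4.73). Of 5 layer 4 genes 4 were called, with Rspo1 at a log2FC of −6.08 and Rorb, the receptor that defines the layer, at a log2FC of −2.31. Whrn, fixed as a layer 4 gene, was higher in cerebellum (123 against 54.4 CPM) and was not called. Of 16 deep-layer genes 10 were called for neocortex and 3 for cerebellum. Fezf2, which specifies subcerebral projection neurons, lay at 26.2 to 35.9 CPM (median 30.3) in neocortex and 0 to 0.204 CPM (median 0.0344) in cerebellum (log2 fold change −8.97), and Bcl11b, its target in those neurons, had a log2 fold change of −5.54. The 3 called for cerebellum were Etv1 (log2FC 2.18), Nxph4 (log2FC 1.54) and Sulf1 (log2FC 1.49). Etv1 is a gene of the granule cell list too.

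Most interneuron genes of the neocortex were called for it. Of 25 genes, 17 were called for neocortex and 4 for cerebellum, with a median log2 fold change of −5.37, or −4.84 with the 3 animals with little olfactory bulb RNA. Vip, a peptide of disinhibitory interneurons (mm10 chr10:5639218-5647617), lay at 40.2 to 73.7 CPM (median 55.9) in neocortex and at 0 to 0.149 CPM (median 0) in cerebellum. Its log2 fold change of −10.51 (SE 0.193, edgeR adjusted p = 1.14e-20) was the lowest fitted value of all genes with a mean of at least 20 CPM. Sst, a peptide of dendrite-targeting interneurons, lay at 2.12 against 191 CPM (log2FC −6.65). Lhx6, a factor of interneurons born in the ventral forebrain, was at a log2FC of −6.07. The DLX genes Dlx1, Dlx2, Dlx5 and Dlx6, which act upstream of it, had log2FCs from −8.58 to −7.41, and the antisense transcript Dlx6os1 was at a log2FC of −8.91, where reads cannot be assigned to a strand.

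The 4 genes called for cerebellum were Pvalb, Reln, Cnr1 and Prox1. Pvalb, a calcium buffer of fast-spiking basket cells in neocortex and of Purkinje cells and molecular layer interneurons in cerebellum, lay at 571 to 865 CPM (median 689) in cerebellum and 54.9 to 116 CPM (median 69.7) in neocortex (log2FC 3.14). Reln, the secreted protein of granule cells that guides migration, was at a log2FC of 1.75, Cnr1, the cannabinoid receptor, at a log2FC of 1.92, and Prox1 at a log2FC of 2.42. Genes of GABA synthesis and storage differed less. Gad2, an enzyme of its synthesis, was at 205 against 181 CPM (log2 fold change 0.08, edgeR adjusted p = 0.362), and it passed in 4 alternatives at log2FCs of 0.21 to 0.40, the highest with the 3 animals with little olfactory bulb RNA (edgeR adjusted p = 0.0013). Slc32a1, the vesicular GABA transporter, was at 239 against 133 CPM and a log2FC of 0.73 without the call.

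Part of the interneuron contrast moved with olfactory bulb RNA. With the 3 animals with little of it, the log2 fold change of Dlx1 went from −8.58 to −6.83 and that of Dlx5 from −8.57 to −5.93, with the calls kept. Scgn, a calcium-binding protein with 2 counts in cerebellum and 3010 in neocortex, went from −9.61 to −3.93 and lost its call. Sp8 (log2FC −9.0 to −4.86), S100a5 (−6.79 to −0.03) and Doc2g (−3.07 to −0.09) are members of the olfactory bulb list by which these animals were chosen, so their lower neocortex level there follows from the choice. Omp, the marker of olfactory sensory neurons whose axons end in the bulb, lay at 0.486 to 71.6 CPM (median 22.7) in neocortex and 0 to 4.79 CPM (median 0.464) in cerebellum. Its log2 fold change was −4.99 over 15 animals and 0.20 in those 3. Of the 1365 genes called for neocortex, 1121 were also called with the 3 animals alone, 47 moved nearer to 0 by over 1 on the log2 scale, and 1, Omp, changed sign. Of the 877 called for cerebellum, 730 were called with the 3 animals and 2 moved by as much. Among genes named elsewhere, the fit of these 3 animals, with fewer libraries, lost the calls of Adcy1 (log2FC 0.77), Cacna1a (1.16), Fgf14 (1.02) and Slc1a3 (1.14) for cerebellum. For neocortex it lost those of Cox6a2 (−1.49), Crabp1 (−4.02), Drd2 (−1.73), Gria2 (−1.17), Grm2 (−1.09), Ldha (−1.03), Plcb1 (−1.19), Prkca (−1.18), Rbp4 (−1.37) and Slc6a11 (−1.28), and the edgeR adjusted p of these 14 genes ranged from 0.0527 to 1. Camk2b and Ermn no longer passed at an adjusted p under 0.05. Without the 4 animals with choroid plexus RNA in the cerebellum library, the calls of Adcy1 (log2FC 1.24), Aldoc (1.09), Gria2 (−1.13) and Plcb1 (−1.06) were lost. Their edgeR adjusted p values ranged from 0.0542 to 0.394.

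**Figure D3:**
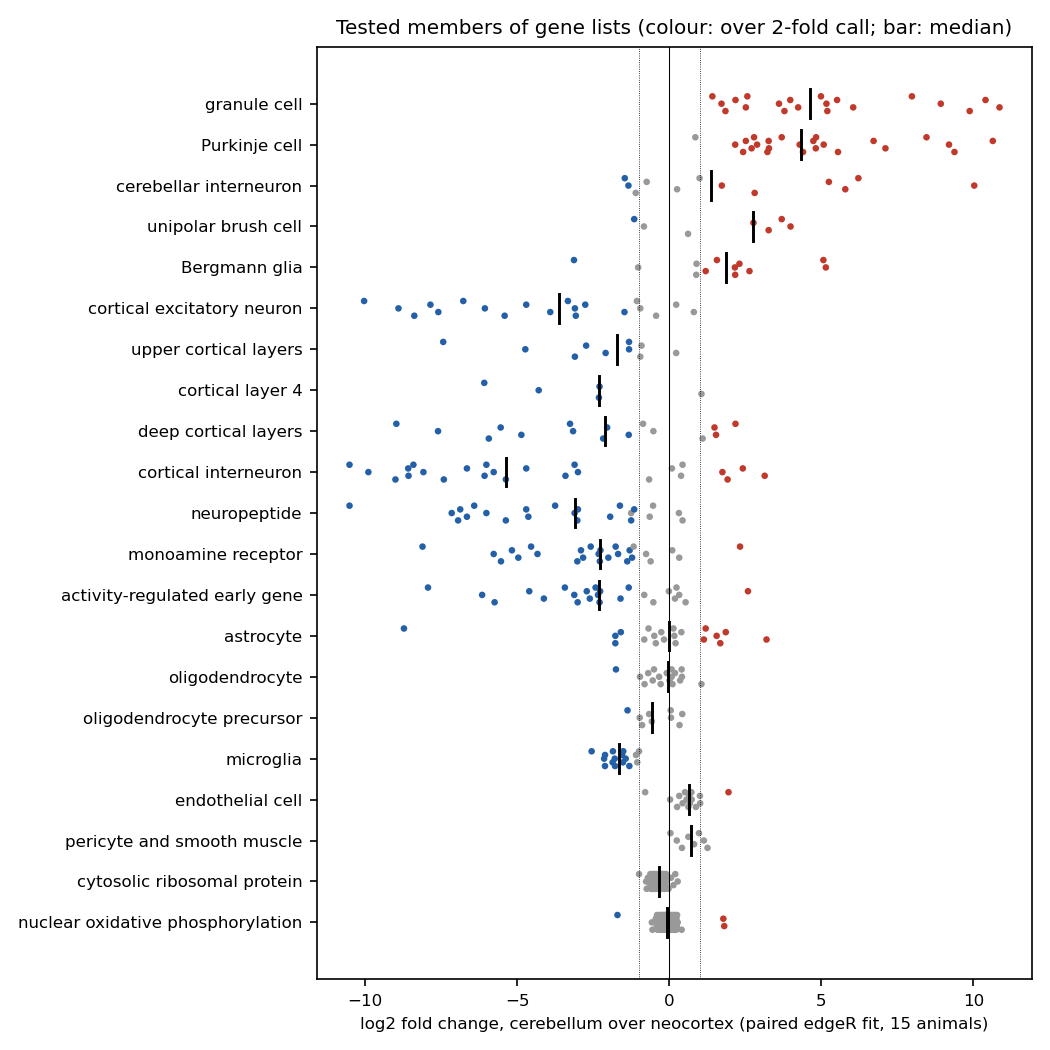
log2 fold change of cerebellum over neocortex from the paired fit of 15 animals for each tested member of the gene lists, with 1 point per gene, colour for the over 2-fold call and a bar at the median of the list. The 20 granule cell genes all lie to the right of 0, and the median of the 25 cortical interneuron genes is −5.37.

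Neuropeptide genes were nearly all higher in neocortex. Of 23 measured, 18 were called for neocortex and 0 for cerebellum, against a background of 10.5% and 6.74%. Besides Vip and Sst these included Pdyn, the precursor of dynorphin (log2FC −7.15), Trh (log2FC −6.94, or −3.70 with the 3 animals with little olfactory bulb RNA), Cartpt (log2FC −6.87) and Tac2 (log2FC −6.41). Peptides measured in both regions were Cck, a peptide of pyramidal cells and interneurons (298 to 594 CPM (median 334) in neocortex and 36.8 to 53.5 CPM (median 43.1) in cerebellum, log2FC −3.11), and Vgf, a granin (27 against 323 CPM, log2FC −3.75). Bdnf, a growth factor listed with them, was at 22.3 against 48.6 CPM and a log2FC of −1.25. The exceptions were the granin Chgb (796 against 581 CPM, log2FC 0.32) and Penk, the precursor of enkephalin (103 against 72.5 CPM, log2FC 0.44), higher in cerebellum at an adjusted p under 0.05 without the call. Penk did not pass in P animals alone (log2FC 0.48, edgeR adjusted p = 0.0585).

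Factors that pattern the embryo were called on both sides. All 5 ZIC zinc finger genes measured were called for cerebellum, and Zic1 lay at 591 to 800 CPM (median 706) in cerebellum and 8.17 to 29.5 CPM (median 18.3) in neocortex (log2FC 5.20). Of 31 homeobox genes, 14 were called for cerebellum and 13 for neocortex, and for 27 the libraries of the regions did not overlap. En2, the engrailed factor of the midbrain and cerebellum, lay at 142 to 230 CPM (median 191) in cerebellum and 0.489 to 1.62 CPM (median 0.771) in neocortex (log2FC 7.66). The Iroquois genes Irx1, Irx2, Irx3 and Irx5 were called for cerebellum, with log2FCs from 4.65 to 7.95, and Barhl2 was at a log2FC of 5.67. Pax3 had 2463 counts in cerebellum and 2 in neocortex, a ratio of CPM of 1351 (counting interval 374 to 11160). On the side of the neocortex stood Emx2 (log2FC −9.20), Lhx2 (0.185 against 74.1 CPM, log2FC −8.72) and Otx1 (log2FC −6.31), all factors of the dorsal telencephalon.

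Some close relatives were on opposite sides, such as Otx1 and Otx2. Meis1 was called for cerebellum (46.2 against 7.46 CPM, log2FC 2.57) and Meis2 for neocortex (5.83 against 166 CPM, log2FC −4.95). In the bHLH family, Neurod1 (log2FC 4.99) and Nhlh2 (log2FC 5.94) were called for cerebellum and Neurod6 for neocortex (7.58 against 70.1 CPM, log2FC −3.33).

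Most GABA-A receptor subunits were called for neither region. Of 15 GABA-A receptor genes, Gabra6 and its partner Gabrd were called for cerebellum, and Gabra5 (1.02 against 63 CPM, log2FC −6.04), Gabra3 (15.1 against 153 CPM, log2FC −3.46), Gabrg3 (log2FC −3.10) and Gabra4 (log2FC −1.44) for neocortex.

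Among 17 ionotropic glutamate receptor genes, 4 were called for cerebellum and 3 for neocortex. The NMDA receptor subunits were exchanged, with Grin2c of granule cells at 452 against 94.4 CPM (log2FC 2.10) and Grin2b at 6.78 against 76.4 CPM (log2FC −3.64), while Grin2a was at 14 against 13 CPM (edgeR adjusted p = 0.675). For AMPA receptors, Gria4 was called for cerebellum (log2FC 2.31) and Gria2, the subunit that limits calcium entry, for neocortex (369 against 749 CPM, log2FC −1.15, edgeR adjusted p = 0.028), a call lost when any 1 of 5 animals was left out and in 10 other alternatives, among them the DESeq2 Wald test (adjusted p = 0.186) and limma-voom (0.107). Of the 7 metabotropic receptors, Grm4 of parallel fibre terminals was called for cerebellum (446 against 29.7 CPM, log2FC 3.79) and Grm5, a receptor coupled to Gq, for neocortex (10.3 against 149 CPM, log2FC −3.93). Grm2, Grm3 and Grm8 were called for neocortex at log2FCs of −1.46, −1.27 and −1.40. The call of Grm2 was lost with the 3 animals with little olfactory bulb RNA (log2FC −1.09, edgeR adjusted p = 0.483) and that of Grm3 in P animals alone (log2FC −1.17, edgeR adjusted p = 0.0963). The iGluR list as a whole was balanced, with a median of −0.12 that becomes 0.01 by library size only.

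Cerebellins, secreted organizers of synapses, were exchanged too. Cbln1 (log2FC 5.52) and Cbln3 (log2FC 10.40) were called for cerebellum, and Cbln2 (0.286 against 49.4 CPM, log2FC −7.73) and Cbln4 (1.48 against 36.1 CPM, log2FC −4.72) for neocortex, as were the C1q-like genes C1ql2 and C1ql3 (log2FC −2.54 and −2.40). Glutamate transporters divided likewise. Slc1a6, the neuronal transporter of Purkinje cells, was at 278 against 9.52 CPM (log2FC 4.74) and Slc1a3, that of Bergmann glia, at 1606 against 648 CPM (log2FC 1.20), both called for cerebellum. The call of Slc1a3 was lost after correction for gene length and GC content (log2FC 0.99, edgeR adjusted p = 1), in V animals alone (0.0636) and with the 3 animals with little olfactory bulb RNA (0.132). Slc1a2, that of astrocytes, lay at 1568 to 3391 CPM (median 2978) in neocortex and 727 to 993 CPM (median 883) in cerebellum and was called for neocortex (log2FC −1.77, SE 0.0917). The plot of paralogues gives levels by library for several of these families.

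**Figure D4:**
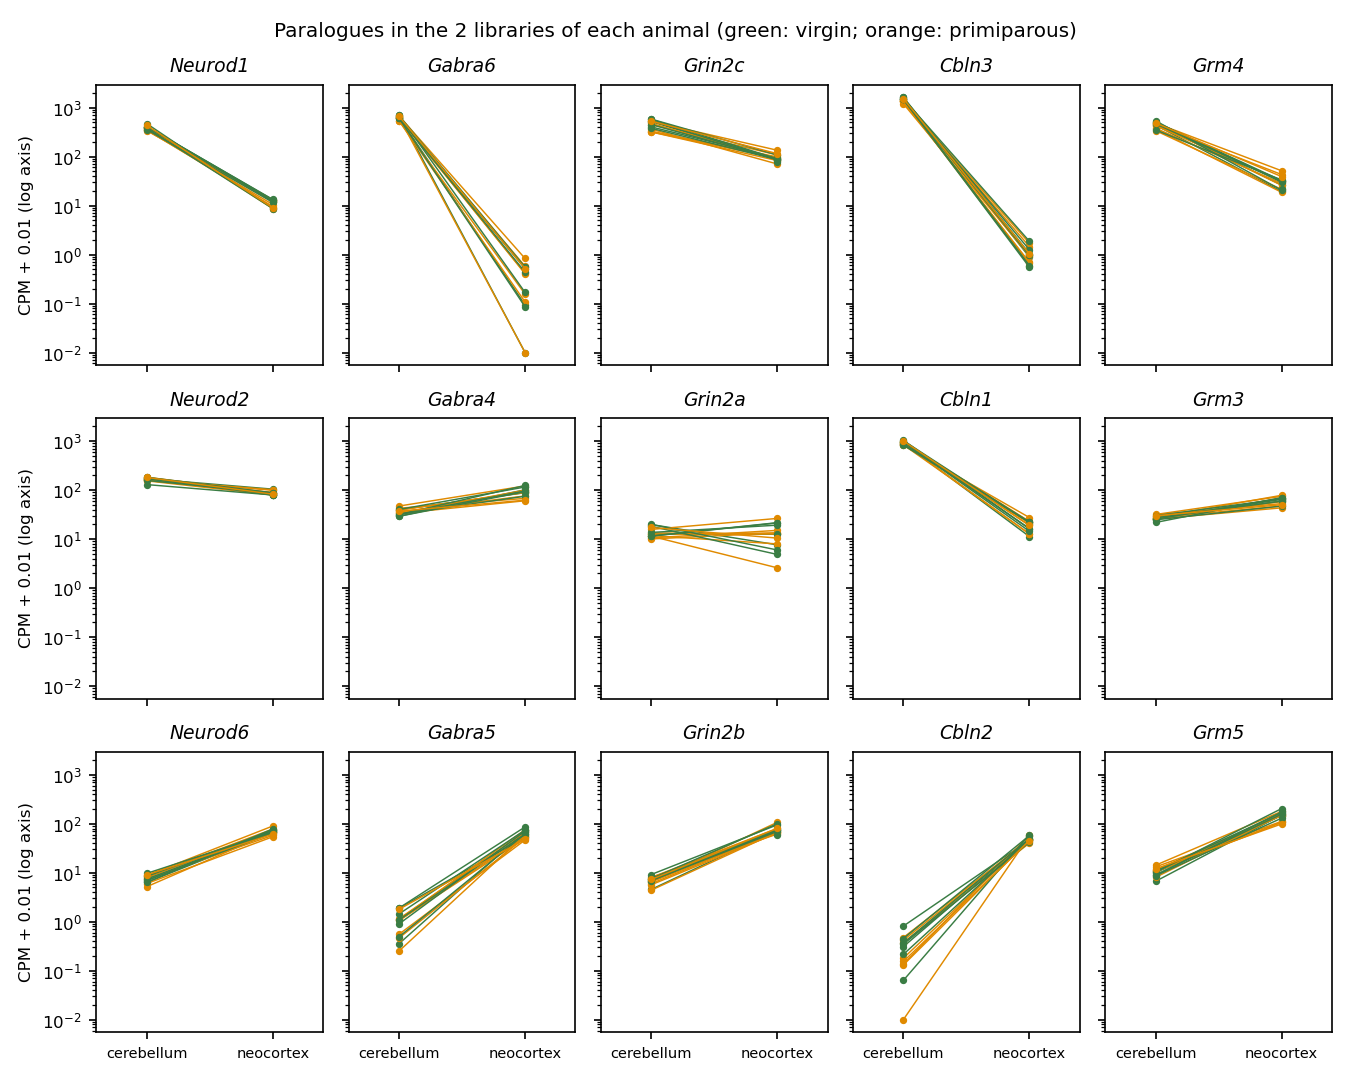
Level of paralogous genes in the libraries of each animal, in CPM + 0.01 on log axes, with 1 point per library, lines joining the libraries of an animal, green for V and orange for P females. In the top row, Gabra6 and Cbln3 among them, the level falls from cerebellum to neocortex in all 15 animals, and in the bottom row, Gabra5 and Cbln2 among them, it rises in all 15.

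Genes of calcium handling were called more often for cerebellum. Of 16 genes for release, uptake and buffering, 8 were called for cerebellum and 2 for neocortex. Besides Itpr1, the cerebellar set held the third IP3 receptor Itpr3 (41.9 against 7.57 CPM, log2FC 2.36), the pump Atp2a3 (461 against 8.24 CPM, log2FC 5.74) and Casq2, the calcium store protein (60.4 against 1.52 CPM, log2FC 5.23). The plasma membrane pumps were exchanged, with Atp2b3 at a log2FC of 1.94 and Atp2b4 and Atp2b1 at log2FCs of −2.41 and −1.48. Of 15 calmodulin-dependent kinase genes, 7 were called for neocortex and 1, Camk4 (777 against 225 CPM, log2FC 1.68), for cerebellum. Camk2b, the beta subunit of the same holoenzyme as Camk2a, was at 757 and 807 CPM and was not called. Camkv, a kinase-like protein, was at 6.55 against 507 CPM (log2FC −6.43).

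Enzymes downstream of receptors followed. Of 20 protein kinase C and phospholipase C genes, 6 were called for cerebellum and 4 for neocortex. Plcb4 (293 against 51.3 CPM, log2FC 2.43) and Plcb3 (log2FC 2.17), which act below receptors coupled to Gq, stood against Plcb1 (123 against 255 CPM, log2FC −1.15, a call near the threshold with an edgeR adjusted p of 0.0423 that was lost in 18 of 30 alternatives), and Prkcd (log2FC 3.04) against Prkca (log2FC −1.29) and Prkcb (676 against 1379 CPM, log2FC −1.15), whose call was lost in 4 alternatives, among them the DESeq2 Wald test (adjusted p = 0.0596). Among 22 adenylate cyclases and phosphodiesterases, 5 were called for cerebellum and 8 for neocortex. Pde5a (141 against 14.3 CPM, log2FC 3.20) and Pde9a (log2FC 2.11), which degrade cyclic GMP, were on the cerebellar side with Pde1c (log2FC 3.26), and Pde1a (4.92 against 179 CPM, log2FC −5.34), Pde2a (53.8 against 499 CPM, log2FC −3.35) and Pde1b (log2FC −2.38) on the other. Adcy1, a calcium-stimulated cyclase, lay at 2040 to 3210 CPM (median 2547) in cerebellum and 544 to 1476 CPM (median 1031) in neocortex (log2 fold change 1.24, edgeR adjusted p = 0.0178), and this call was lost under several alternatives, with an adjusted p of 0.326 after correction for gene length and GC content.

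Of 16 regulators of G-protein signalling, 10 were called for neocortex and 2 for cerebellum. Rgs4, a regulator of Gq and Gi signalling, lay at 370 to 549 CPM (median 465) there and 12.9 to 24.9 CPM (median 20.2) in cerebellum (log2FC −4.63), and Rgs14 was at a log2FC of −7.32. Rgs8 (log2FC 4.29) was the counterpart in cerebellum, with Rgs3 at a log2FC of 1.31.

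Potassium channels were mostly neocortical by number, 17 of 37 called against 5 for cerebellum. Kcnv1, a silent subunit, lay at 67.3 to 135 CPM (median 106) in neocortex and 0 to 0.224 CPM (median 0.0681) in cerebellum (log2FC −10.16), and Kcnh3 (1.96 against 230 CPM, log2FC −7.00), Kcnf1 (2.19 against 194 CPM, log2FC −6.60) and Kcnq5 (log2FC −5.16) followed. The 5 of the cerebellum include channels of fast-firing neurons. Kcnc1 lay at 817 against 279 CPM (log2FC 1.42), Kcnd2 of granule cells at 293 against 94.2 CPM (log2FC 1.53) and Kcng4 at 250 against 15.2 CPM (log2FC 3.92). Within the Shaw family, Kcnc2 was called for neocortex at 7.25 against 118 CPM (log2FC −4.16).

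Of 33 sodium, calcium and pacemaker channel genes, 3 were called for cerebellum and 9 for neocortex. The 3 were Cacna1a, the P-type channel (547 against 205 CPM, log2FC 1.28), Cacna1g, a T-type channel (536 against 116 CPM, log2FC 2.08), and Cacna2d2, an auxiliary subunit (241 against 39.3 CPM, log2FC 2.51). On the neocortex side, Cacna1h is another T-type channel (4.11 against 64.3 CPM, log2FC −4.07), Cacna2d1 another auxiliary subunit (log2FC −2.06), and Scn3b (3.87 against 98.6 CPM, log2FC −4.79) and Scn3a (log2FC −3.98) sodium channel genes. Scn8a, the main sodium channel of Purkinje cell firing, was at 384 against 381 CPM (edgeR adjusted p = 0.104), but it passed in 4 alternatives, with log2FCs of −0.34 after correction for gene length and GC content (edgeR adjusted p = 7.85e-08) and −0.33 in the 3 animals with little olfactory bulb RNA (edgeR adjusted p = 0.00605).

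Some relatives within the vesicle release machinery were on opposite sides. Of 43 genes, 6 were called for cerebellum and 11 for neocortex. Stx1a, a plasma membrane SNARE, lay at 257 to 377 CPM (median 315) in neocortex and 1.56 to 3.49 CPM (median 2.3) in cerebellum (log2FC −7.21). The calcium sensors Syt1 (527 against 1492 CPM, log2FC −1.61) and Syt5 (log2FC −4.18) were called for neocortex and Syt2 (301 against 28.9 CPM, log2FC 3.34) and Syt9 (log2FC 2.58) for cerebellum. Among priming factors, Unc13c (267 against 32.5 CPM, log2FC 2.96) was called for cerebellum and Unc13b (log2FC −1.97) for neocortex, and among Doc2 proteins Doc2b was called for cerebellum (153 against 18.3 CPM, log2FC 2.96) and Doc2a for neocortex (log2FC −2.98). Of 24 adhesion genes of the synapse, 7 were called for neocortex and 0 for cerebellum, led by Lrrtm1 (8.94 against 64.4 CPM, log2FC −2.97), and Nrxn2 and Nrxn3 did not pass at an adjusted p under 0.05 (481 against 410 CPM and 321 against 300 CPM). Nrxn2 passed by library size only (log2FC 0.23, edgeR adjusted p = 0.000716) and in 4 other alternatives, and Nrxn3 after correction for gene length and GC content (log2FC −0.27, edgeR adjusted p = 0.00254).

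Receptors for modulators were mostly called for neocortex. Of 26 receptors of acetylcholine, serotonin, dopamine, noradrenaline and histamine, 20 were called for neocortex and 1 for cerebellum. Chrm1, the main muscarinic receptor of pyramidal cells, lay at 161 to 203 CPM (median 175) in neocortex and 0.144 to 1.49 CPM (median 0.804) in cerebellum (log2FC −8.11). Chrm3 (log2FC −5.53), Htr1a (log2FC −5.17), Htr2a (log2FC −4.33) and Drd1 (0.375 against 10.1 CPM, log2FC −4.96) followed. Drd1 and Drd2 are also striatal genes, and 8 of 12 striatal genes were called for neocortex. Striatal RNA in the neocortex libraries was not tested. Htr1b was the exception, at 5.92 against 1.11 CPM and a log2FC of 2.33.

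Few oligodendrocyte genes were called. Of 18 oligodendrocyte genes, 1 was called for neocortex (Opalin, 3.67 against 11.3 CPM, log2FC −1.75) and 0 for cerebellum, and Mag, a protein of myelin, was at 182 against 164 CPM without passing the test (edgeR adjusted p = 0.929), but passed by library size only (log2FC 0.13) and after correction for gene length and GC content (log2FC 0.12). Olig1 (log2FC −0.96) and Olig2 (log2FC −0.81) were lower in cerebellum at an adjusted p under 0.05, and Cnp (log2FC 0.36) and Ermn (log2FC 0.41) higher, none with the call. Of 9 precursor genes 1 was called, Gpr17 for neocortex (20.9 against 49.5 CPM, log2FC −1.37).

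Astrocyte genes divided into sets for each region, 6 of 20 called for cerebellum and 4 for neocortex. Agt, the precursor of angiotensin, lay at 104 to 147 CPM (median 130) in cerebellum and 7.63 to 23.8 CPM (median 12.1) in neocortex (log2FC 3.20), and S100b (653 against 165 CPM, log2FC 1.86), Slc4a4 (log2FC 1.68) and Aqp4, the water channel of endfeet (345 against 109 CPM, log2FC 1.56), were on the same side. Mfge8 (75.2 against 207 CPM, log2FC −1.59) and the GABA transporter Slc6a11 (69.5 against 222 CPM, log2FC −1.77) were on the other. Aldoc, an aldolase of astrocytes and of bands of Purkinje cells, lay at 2248 to 2959 CPM (median 2637) in cerebellum and 901 to 1335 CPM (median 1101) in neocortex (log2FC 1.14, edgeR adjusted p = 0.00747), and its call was lost in P animals alone (log2FC 1.15, adjusted p = 0.0639) and without the 4 animals with choroid plexus RNA (log2FC 1.09, adjusted p = 0.125).

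Microglial genes were lower in cerebellum throughout. All 16 were lower at an adjusted p under 0.05, and 13 were called for neocortex. Cx3cr1, the fractalkine receptor, lay at 12.1 to 21.8 CPM (median 16.9) in cerebellum and 42.7 to 62.5 CPM (median 55.8) in neocortex (log2FC −1.78, SE 0.0688). P2ry12, a purinergic receptor (8.75 against 29 CPM, log2FC −1.85), Tmem119 (8.47 against 27.8 CPM, log2FC −1.86) and Fcrls (5.91 against 31.4 CPM, log2FC −2.55) were among them. With the 3 animals with little olfactory bulb RNA, 16 of 16 were still lower at an adjusted p under 0.05 and 8 were called.

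Vessel genes went the other way. Of 16 endothelial genes, 14 were higher in cerebellum at an adjusted p under 0.05, against a background of 38.5%, and 1 was called, Ocln, a tight junction protein (25.4 against 6.09 CPM, log2FC 1.95). Flt1, a VEGF receptor, was at 63.5 against 30.6 CPM (log2FC 1.02) and Pecam1 at 25.7 against 14.8 CPM (log2FC 0.74), while Egfl7 was lower in cerebellum (13.2 against 21 CPM, log2FC −0.79). Pericyte genes had similar values without a call, such as Rgs5 at a log2FC of 1.26. Of 11 genes of the meninges, 9 were higher in cerebellum at an adjusted p under 0.05, 0 were lower and 2 were called, with a median log2FC of 0.60 against 0.64 for the endothelial genes. Their summed level was 1003 to 1854 CPM in cerebellum and 651 to 1542 CPM in neocortex, and the part of the meninges in the values of vessel genes was not tested. Of 9 choroid plexus genes, 3 were called for cerebellum (Otx2, Slc4a5 with a log2FC of 3.63 and Clic6 with one of 2.38), and Ttr, its main secreted protein, lay at 18.1 to 3334 CPM (median 65) in cerebellum and 5.17 to 78.8 CPM (median 16.3) in neocortex and was higher in cerebellum at an adjusted p under 0.05 without the call (log2FC 1.93, edgeR adjusted p = 0.0209). Without the 4 animals with choroid plexus RNA the log2FC of Ttr was 0.95 and no longer passed (edgeR adjusted p = 0.0881), nor did it pass in V animals alone (0.257) or with the 3 animals with little olfactory bulb RNA (0.266). Aqp1, a water channel, was called for neocortex (log2FC −2.61), with −0.44 in the 3 animals with little olfactory bulb RNA, where the call was lost. Its call was also lost with no replicate block (log2FC −1.79, edgeR adjusted p = 0.213) and by limma-voom (log2FC −2.10, adjusted p = 0.191). Its highest level in a cerebellum library, 21.6 CPM, lay above its highest level in neocortex, 16.2 CPM. The 3 globin and heme genes of blood were higher in cerebellum by 0.70 to 1.02 on the log2 scale, without a call.

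Genes induced by activity were lower in cerebellum. Of 24 early genes, 16 were called for neocortex and 1, Dusp5 (63.6 against 9.68 CPM, log2FC 2.59), for cerebellum. Egr3 (0.228 against 53.9 CPM, log2FC −7.93), Nptx2, a secreted pentraxin (1.98 against 94 CPM, log2FC −5.74) and Arc, a cytoskeletal protein of spines, were among the 16. Arc lay at 154 to 405 CPM (median 263) in neocortex and 19 to 35 CPM (median 28.1) in cerebellum (log2FC −3.43). Fos, the usual marker, was at 19.7 against 29.2 CPM and a log2FC of −0.82 without the call, and Jun (log2FC 0.33) and Ier2 (log2FC 0.54) were higher in cerebellum without it. Homer1, whose listed gene makes long and short isoforms, was at 39 against 177 CPM (log2FC −2.29), and its relative Homer3 of Purkinje cells was at 301 against 5.96 CPM (log2FC 5.55).

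Of 20 clock genes, 3 were called for cerebellum and 2 for neocortex. Rora (69.2 against 9.25 CPM, log2FC 2.79), the receptor whose loss stops Purkinje cell maturation, and Cry1 (53.4 against 21.2 CPM, log2FC 1.20) stood against Rorb (log2FC −2.31) and Npas2 (7.45 against 50.2 CPM, log2FC −2.89). Clock, the partner that Npas2 can replace, was at 116 against 66.4 CPM and a log2FC of 0.75 without the call. Among 30 nuclear receptors, 4 were called for cerebellum and 8 for neocortex. Of the hormone receptors on that list, Pgr, the progesterone receptor (16 against 37.5 CPM, log2FC −1.34), Esr1, an oestrogen receptor at low level (0.262 against 1.2 CPM, log2FC −2.25), and Thrb, a thyroid hormone receptor (14.8 against 64.4 CPM, log2FC −2.21), were called for neocortex. The call of Esr1 was lost by limma-trend on the deposited log2 values (log2FC −1.53, adjusted p = 0.112). Nr2e1, an orphan receptor of the forebrain, had the lowest log2 fold change of the list at a log2FC of −8.69.

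Hedgehog, WNT and BMP genes gave 7 calls for cerebellum and 10 for neocortex of 36. Gli1, the target gene of hedgehog signalling (20.4 against 2.4 CPM, log2FC 2.98), Ptch1 (178 against 28.7 CPM) and Shh itself (9.42 against 3.87 CPM, log2FC 1.15, not called) were higher in cerebellum. Wnt3 (log2FC 3.49) and Wnt7a (90.4 against 16.1 CPM, log2FC 2.38) were on the same side, and Wnt10a (log2FC −5.20), Wnt9a (log2FC −3.63), Wnt4 (log2FC −2.39) and Wnt7b (8.91 against 37.2 CPM, log2FC −2.20) on the other. Dkk3, a secreted relative of WNT inhibitors, lay at 341 to 455 CPM (median 404) in neocortex and 23.2 to 36 CPM (median 28.2) in cerebellum (log2FC −3.92). Of 15 retinoic acid genes, Aldh1a1 (288 against 55 CPM, log2FC 2.26) and Cyp26b1 (log2FC 1.92), enzymes of its synthesis and breakdown, were called for cerebellum, and Rbp4 (log2FC −1.75), Rxrg (log2FC −3.74) and Crabp1 (log2FC −4.83) for neocortex.

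Genes whose mutation causes spinocerebellar ataxia were listed as a group of 26. Of these, 7 were called for cerebellum and 2 for neocortex. Among the 7 were Itpr1, Cacna1g, Cacna1a and Fgf14 (72.4 against 30.9 CPM, log2FC 1.18), which encode channels or a channel partner. The call of Fgf14 was near the threshold (edgeR adjusted p = 0.0384) and was lost under 8 alternatives besides those that leave out 1 animal. The 2 were Pdyn and Ppp2r2b, a phosphatase subunit (43 against 132 CPM, log2FC −1.74). Eef2, an elongation factor, was at 1424 against 1302 CPM (edgeR adjusted p = 0.973). Atxn1 was lower in cerebellum without the call (54.6 against 100 CPM, log2FC −1.01).

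Housekeeping processes differed by little. Of 77 cytosolic ribosomal protein genes, 62 were higher in neocortex and 1 in cerebellum at an adjusted p under 0.05, and 0 were called in either direction, with a median log2 fold change of −0.33. By library size only, 40 were higher in neocortex and 4 in cerebellum. With the 3 animals with little olfactory bulb RNA, 17 were higher in neocortex. The neocortex library of animal 427 had the highest summed level of these genes, 18647 CPM against 9399 to 13899 CPM in the other neocortex libraries. Of 85 genes of oxidative phosphorylation and its assembly factors, 2 were called for cerebellum, Cox7a1 (log2FC 1.78) and Cox6b2 (log2FC 1.81), and 1 for neocortex, Cox6a2 (log2FC −1.70), all isoforms of cytochrome oxidase subunits with restricted tissues. Of 22 cholesterol synthesis genes, 14 were higher in neocortex at an adjusted p under 0.05, against a background of 39.5%, and 3 were called, with Fdft1, the first enzyme of sterol synthesis proper, at 35.9 against 83.3 CPM (log2FC −1.34). Of 19 glycolysis genes, Hk2 (21.2 against 5.29 CPM, log2FC 1.89) and Aldoc were called for cerebellum and Ldha, a lactate dehydrogenase (165 against 331 CPM, log2FC −1.13), for neocortex, the last near the threshold (edgeR adjusted p = 0.016, lost in 9 alternatives). Of 15 mitochondrial transcripts tested, none was called.

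Some genes had nearly the same level in both regions. For 39 genes (0.3%) the 95% interval of the log2 fold change lay within 0.1 of 0. The one with the most reads was Ctsb, a lysosomal protease, at 662 to 842 CPM (median 713) in cerebellum and 600 to 785 CPM (median 653) in neocortex (log2 fold change 0.00, SE 0.0399). Fam168b (395 against 364 CPM), the corepressor Ctbp1 (331 against 302 CPM) and the initiation factor Eif4g3 (328 against 303 CPM) were among those with the next most reads. These log2 fold changes differ from the CPM ratios by the shift given above. By library size only Ctsb, Fam168b and Eif4g3 passed at log2FCs of 0.12 to 0.13, and Eif4g3 passed at −0.17 after correction for gene length and GC content (edgeR adjusted p = 0.000155).

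The genes that varied most between animals were those of neighbouring tissues and 3 features for which no table used here gave a name. The median SD over animals of the paired log2 difference was 0.261, and it was 2.05 for Omp and 2.54 for Ttr. The unnamed feature with Entrez identifier 100861531 was the most abundant of these, from 1003 to 15039 CPM in cerebellum and from 2746 to 64349 CPM in neocortex. Its level was highest in the neocortex of P animals 421 and 4493. It was not called, and the shares of the 100 most abundant genes differed between regions without it too (exact p = 6.1e-05).

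Dependence of the regional difference on reproductive state passed edgeR's test of the interaction (adjusted p under 0.05) for 1 of 13016 genes (0.00768%), Lix1. This count became 184 by the DESeq2 Wald test, 8 without animal 405 and 0 without the 4 animals with choroid plexus RNA. Lix1 (mm10 chr17:17402672-17459387) is named for its expression in the limb bud. It lay at 5.46 to 7.09 CPM in cerebellum of V females (median 6.43) and at 7.96 to 12.5 CPM in cerebellum of P females (median 8.99). In neocortex it lay at 44 to 50.7 CPM in V females (median 48.5) and at 33.8 to 44.3 CPM in P females (median 39.4). The states thus did not overlap in cerebellum, P above V, and overlapped narrowly in neocortex, P below V. The log2 fold change of cerebellum against neocortex was −3.02 in V and −2.23 in P females fitted apart, and the interaction in the fit of all animals was 0.81 (SE 0.107, edgeR adjusted p = 0.00554). Without the 4 animals with choroid plexus RNA the difference was 0.82, with an adjusted p of 0.746. The next genes by p were Golga7, a palmitoylation cofactor (0.42, edgeR adjusted p = 0.101), Tle2, a corepressor (−0.82, 0.12), the mitochondrial transcript mt-Nd3 (0.99, 0.12) and Mpp7 (0.59, 0.12), and none of them passed. At an unadjusted p under 0.05, 1891 of the 13016 genes passed. This is more than the share of 0.05 that independent genes without such a dependence would give. The count of 1 therefore does not show that the other genes lack a dependence on state.

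**Figure D5:**
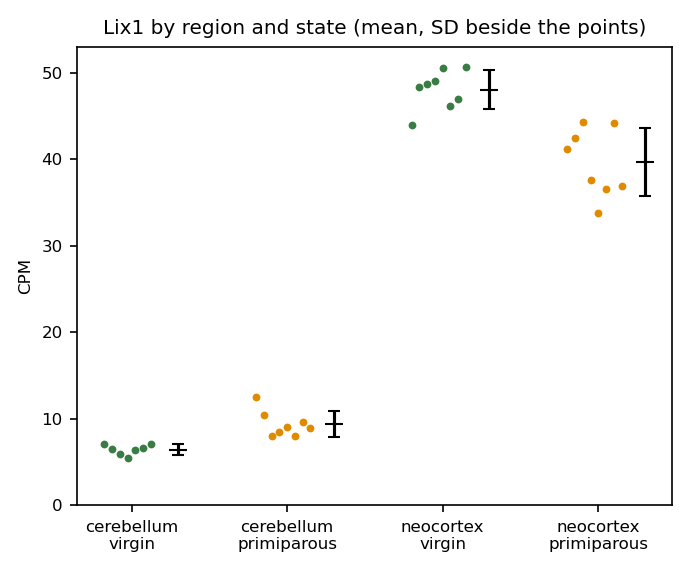
Level of Lix1 in CPM in each library by region and state, with the mean and SD beside the points. In cerebellum the 8 P libraries (7.96 to 12.5 CPM) lie above the 7 V libraries (5.46 to 7.09 CPM), and in neocortex the P libraries reach 44.3 CPM at most.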

How the data were processed

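RNA with poly(A) tails was selected by the authors for NEBNext Ultra libraries and sequenced as single-end reads of 100 bases, which they aligned with HISAT2 to mm10, and they counted uniquely mapping reads with featureCounts and the annotation built into Rsubread. The submitters' processing notes also name CASAVA, edgeR and limma. Strand use in the counting is not given in the sources used here, so reads of overlapping genes on opposite strands cannot be told apart. The deposited count table holds raw counts for 27179 genes and 77 libraries, and 3 outlier libraries that the authors removed are not analysed here. The deposited log2 table, used for an alternative, holds log2 of the count over a size factor plus 4.

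Genes with 5 CPM in at least 8 of the 77 libraries were kept, which gave the 13016 genes of the log2 table. Names came from RefSeq by Entrez identifier for 12886 of them and from GENCODE for 15. Of the deposited symbols, 65 were neither the RefSeq symbol nor a listed synonym for the identifier beside them. 115 genes had no name. The counts were fitted in edgeR 4.0.16 (R 4.3.3) with TMM normalization and robust quasi-likelihood dispersions, with animal as a block and region as the effect, over the 30 libraries of 15 animals. glmTreat tested for a difference over a log2 value of 1, and Benjamini-Hochberg adjustment covered all 13016 genes. The interaction of region and state was fitted with the same block. The fits were run beforehand on simulated counts in which few genes differed between regions. That check does not cover a contrast where most genes differ, as here. Whole-library values were tested by exact two-sided sign-flip permutation over the 15 animals. The animals are the replicates. The biological coefficient of variation was 14.3%.

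The same animal gave both libraries, as the animal numbers of the labels state, so the numbers pair the samples. Deviations from the group means correlated by −0.252 to 0.396 (median 0.0124) within an animal and by a median of −0.00848 between animals of a state. Among neocortex libraries of the same state, 3 of 15 cerebellum libraries correlated best with their own. The pairing thus rests on the numbers, and these correlations do not show it. Alternatives covered other normalizations, filters and tests (DESeq2 1.42.0, limma 3.58.1), a correction for gene length and GC content with the block, each state alone and leaving out each animal. The regions, lists and genes were chosen with earlier results of these data known. Named genes are the 10 called genes with the largest log2 fold change in each direction at a mean of at least 20 CPM, the 6 with the largest difference in CPM in each direction, leading, opposing and paralogous members of the lists, the 5 with the smallest interaction p, the 5 that varied most between animals and the 5 with the most reads among equal genes. Some listed members were named after their values were seen, and some genes of these rules and lists are not reported here. The S6 kinases and a binding protein were left out of the ribosomal list. Promoter sequences are from RefSeq on GRCm38.p6. Plots used Python 3.11.15 and matplotlib 3.10.9.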

Additional observations from a re-analysis of the deposited data

Results flagged for a closer look

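The difference between the regions depended on reproductive state for Lix1, with an interaction of 0.81 on the log2 scale. It passed in the fit with all 15 animals and lost the call without the 4 animals with choroid plexus RNA, where the value was 0.82.

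For 42 genes chosen by rule, each region and state was searched for a library that lies apart from its group by Dixon's criterion. Of 166 groups with any spread, 18 held such a library (10.8%), against 5% by chance for normally distributed values. Several of these genes had CPM values near 0, to which that 5% does not apply. The genes include those chosen for varying most between animals, so part of this excess can follow from the choice. Genes of the neocortex had outlying cerebellum values in V animal 405, with Ddn at 7.32 CPM, Nrgn at 5.15 CPM and Smim43 at 0.299 CPM. Other such values in cerebellum were those of Ddn (4.28 CPM) and Sp8 (0.168 CPM) in P animal 413 and of Dlx6os1 (0.0911 CPM) in P animal 421. In the neocortex library of P animal 427, Nrgn was highest at 2276 CPM, Ctsb highest at 785 CPM and Rgs8 lowest at 63.8 CPM. The same library had the highest summed levels of ribosomal protein genes (18647 CPM) and of oxidative phosphorylation genes (17863 CPM). In cerebellum, Ttr reached 3334 CPM in P animal 421, the library with the most choroid plexus RNA. Omp was highest in cerebellum of P animal 427 at 4.79 CPM and lowest in V animal 409 at 0 CPM. P animal 414 had the highest cerebellum values of Golga7 (122 CPM) and Ctsb (842 CPM), and P animal 4493 the lowest of Aldoc (2248 CPM). Fat2 was highest in neocortex of P animal 418 at 1.23 CPM. The unnamed features with Entrez identifiers 100861531 and 19791 were highest in cerebellum of V animal 4487, at 15039 and 1683 CPM.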

How the results depend on the processing

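Over the 30 alternatives, the number of genes called over 2-fold stayed within 1.5 times of 877 and 1365, except that 2229 genes were called for neocortex with no filter on low counts, where 23582 genes were tested. Leaving out 1 animal in turn gave 859 to 882 and 1342 to 1383 genes. The fit with no replicate block, over 31 libraries, called 864 and 1372 genes, 2208 of them shared with the paired fit, and 1 gene for the interaction. By library size only the counts were 1049 and 1209, and with the 3 animals with the least olfactory bulb RNA (an alternative chosen after seeing the data, like that on choroid plexus) 789 and 1160.

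The count of 1 gene for the interaction became 184 by the DESeq2 Wald test, 3 with the correction for length and GC content, 8 without animal 405, 2 without animal 425, and 0 without the 4 animals with choroid plexus RNA, where 694 genes had an unadjusted p under 0.05. Leaving out each animal gave 1 to 8 genes. The cause was not tested. The number of genes per library differed by −264 at 1 CPM (exact p = 0.000122) and not detectably at 5 CPM.

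Of 7902 pairs of a named gene and an alternative, 7741 kept direction and call, 134 lost the call, or for genes not called the adjusted p under 0.05, 23 passed in the alternative only or moved by more than the spread between animals, and 4 changed sign. The sign changes were Fabp7 (0.55) and Omp (0.20) with the 3 animals, and Prl (−0.56) and Gh (−0.82) with no replicate block. Leaving out 1 animal ended the call of 4 genes near the threshold, namely Aqp1 (adjusted p of 0.0501 to 0.0676 by edgeR in those fits), Fgf14 (0.061 to 0.0996), Gria2 (0.0515 to 0.0685) and Plcb1 (0.0576 to 0.112), and took Gh and an unnamed feature, which were not called, over an adjusted p of 0.05. By library size only, the calls of Bdnf, Gria2, Ldha, Plcb1 and Prkcb were lost. V animals alone lost those of Aqp1, Fgf14, Ldha, Prkcb and Slc1a3, and P animals alone those of Adcy1, Aldoc, Bdnf, Cacna1a, Drd2, Gria2, Grm3, Ldha, Nxph4, Pgr, Plcb1 and Prkca. Genes at a few reads in 1 region have fitted fold changes that depend on the prior count. Depth limits such levels to those above about 1 read per library.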
